A study of Mus musculus with 3 samples.

Results

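The genes described here are 38 synaptic vesicle and active zone genes, which encode proteins of the presynaptic terminal. They are a list of symbols, drawn up with earlier results of these data known, and all 38 were found among 18109 protein-coding genes of a deposited table of transcript levels. The RNA came from cortical neurons of wild-type Swiss-Webster mice, an outbred stock, taken at embryonic day 16 and cultured in neurobasal medium with B27. Poly-A RNA was sequenced in 3 libraries of 1 untreated group, so no condition was compared with another, and the comparisons are between genes within the same libraries. The growth protocol also describes etoposide, a drug that traps type II topoisomerases on DNA, but the treatment label of these libraries reads none, and neither the days in culture nor any addition of its solvent DMSO to these plates is given in the labels. The labels do not say whether each library is a culture of its own, so every SD and p-value covers the spread of these libraries alone, and that spread may be technical.

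Transmitter release begins when a vesicle docks at the active zone, a protein scaffold opposite the receptors of the next cell. SNARE proteins on the vesicle and the plasma membrane zip together and fuse both membranes when calcium enters, held in check by complexins and triggered by calcium sensors. The SNAREs are then pulled apart by an ATPase, and the vesicle membrane is recovered by endocytosis. Cortical neurons assemble this machinery as their axons form synapses.

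Levels are in TPM, read shares scaled by transcript length to a common total, and belong to each gene's longest protein-coding transcript row. They are given for libraries 1, 2 and 3 in that order or as mean ± SD (n = 3). Rows of a gene share reads and were never summed. Reads behind the rows could be recovered for 30 of the 38 genes, and the rows of all protein-coding genes for which this was possible held 23.5, 20.7 and 20.4 M reads in the 3 libraries. The cell type label was checked with markers. All 8 pan-neuronal genes stood above 10 TPM, led by the microtubule regulator gene Stmn2 at 687 ± 55.6 TPM, and all 7 astrocyte genes were above 1 TPM, led by the lipid carrier gene Apoe at 419.5 ± 113 TPM. All 5 glutamatergic and all 5 GABAergic genes reached 1 TPM, as did 5 of 6 genes of the oligodendrocyte lineage and 3 of 4 of proliferating cells. Of 5 microglial genes 1, Aif1, reached 1 TPM, and of 3 endothelial genes none did. The share of all protein-coding genes that did was 61.5%.

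Of the 38 genes 36 had a mean of at least 1 TPM, against 61.5% of all protein-coding genes. At least 10 TPM was reached by 28 of them, where the share of all protein-coding genes was 26.4%, and at least 100 TPM by 7, where it was 1.57%. Those above 100 TPM were Syp, Snap25, Vamp2, Napb, Cplx1, Cplx2 and Nsf. The median of log2(mean TPM + 1) was 5.00 ± 0.13 (SD of the 3 library medians) over the 38 genes and 1.94 ± 0.0044 over all protein-coding genes. Only Unc13c and Syn3 had means under 1 TPM, and Sv2c lay just above the limit, at 0.987, 1.26 and 0.963 TPM. By role the medians were 6.86 ± 0.12 for the 6 SNARE and recycling genes, 6.19 ± 0.14 for the 10 vesicle membrane genes and 5.57 ± 0.20 for the 5 endocytosis genes. The 5 complexin and calcium sensor genes had 5.43 ± 0.14 and the 12 priming and scaffold genes 4.06 ± 0.12, the lowest of the 5 roles. The plot of levels by library shows that the roles overlapped and that most genes varied far less between libraries than between each other.

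**Figure D1:**
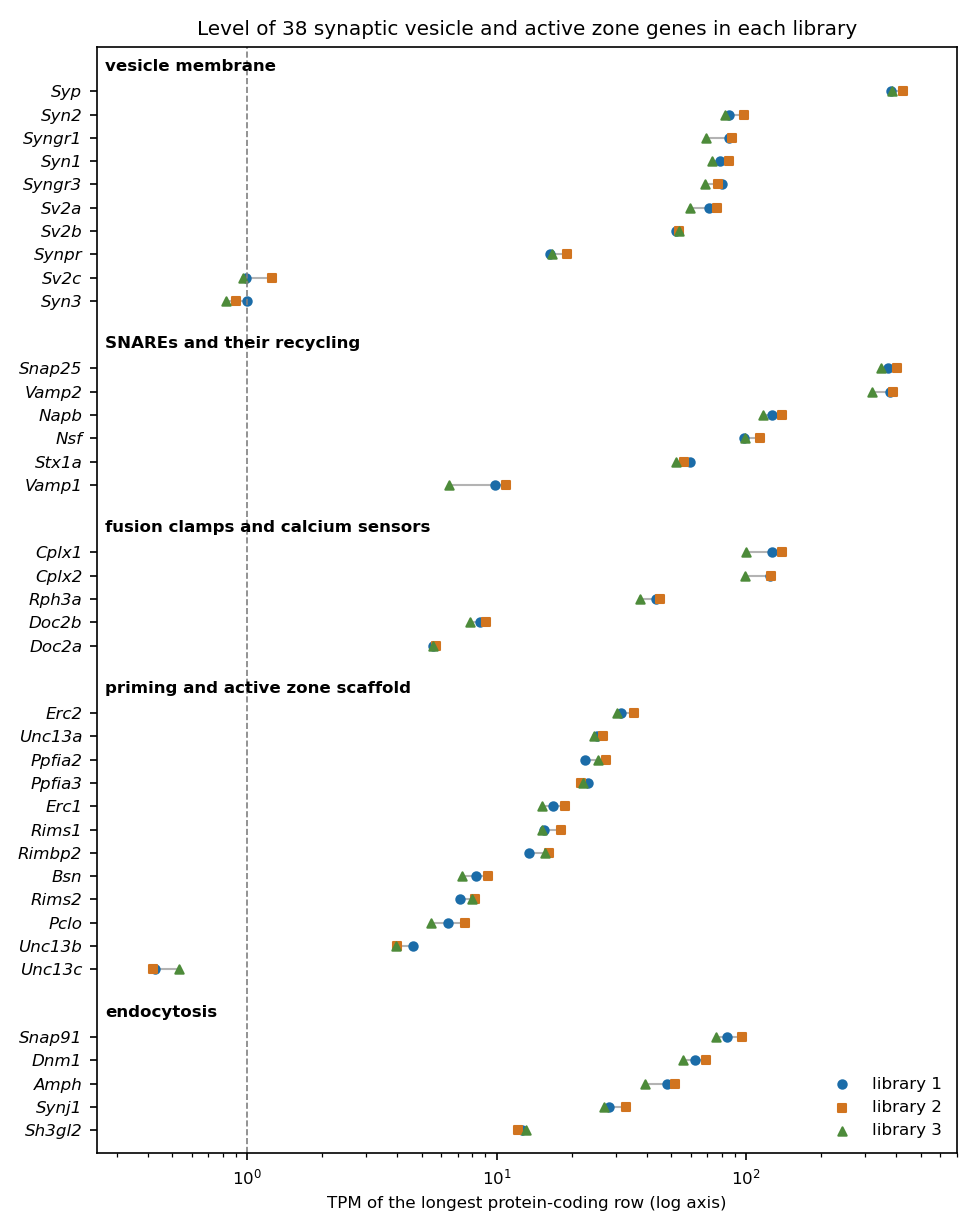
Level of each of the 38 genes in libraries 1, 2 and 3, as TPM of the longest protein-coding row on a log axis, grouped by role. Each symbol is 1 library, the grey line spans the 3 values and the dashed line marks 1 TPM; Syp, Snap25 and Vamp2 lie between 319 and 426 TPM, and Unc13c lies below 1 TPM in each library.

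Among the genes of the vesicle membrane, Syp stood highest. It encodes synaptophysin, an abundant vesicle protein that binds synaptobrevin, and its row (mm10 chromosome X, 7638471 to 7653256, plus strand) was at 379, 426 and 384 TPM. Synpr, which encodes its relative synaptoporin, was at 16.4, 19.2 and 16.6 TPM. Within each library Syp exceeded Synpr by 4.43 ± 0.03 on the log2(TPM + 1) scale, a TPM ratio of 22.8 ± 0.5297, with no overlap between them. Syngr1 and Syngr3, whose products synaptogyrin 1 and 3 are also membrane-spanning vesicle proteins, stood at 85.4, 87.7 and 69.2 TPM and at 79.7, 77.4 and 68.4 TPM. Their difference of 0.10 ± 0.08 was about as large as its SD, and the ranges overlapped.

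The synapsins tether vesicles in the reserve pool. Syn2 stood at 85.3, 97.7 and 82.5 TPM and Syn1 at 78.3, 85.3 and 72.9 TPM, so Syn1 was the lower of the pair in each library. Syn1 minus Syn2 was -0.16 ± 0.04 on the log2 scale. That order depends on which Syn2 transcript is read. The 2 deposited Syn2 rows end in different exons: the longer, Syn2-202 with 1437 coding bases, gave the values above, while Syn2-201 with 1758 coding bases stood at 40.6, 43.2 and 39.02 TPM, below Syn1. Syn3 was low, at 1.003, 0.901 and 0.825 TPM (206, 156 and 151 reads), on the row Syn3-202, which carries 729 coding bases. On Syn3-201, which carries 1737 coding bases, it stood at 4.67, 4.25 and 4.02 TPM. Syn3 was thus under 1 TPM on one coding row and above 1 TPM on the other, and below Syn1 and Syn2 on both.

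SV2 proteins are vesicle glycoproteins that botulinum toxin A uses as receptors. Sv2a stood at 70.7, 76.3 and 59.8 TPM and Sv2b at 52.2, 53.9 and 53.9 TPM. Sv2a was the higher in 3 of 3 libraries, by 0.36 ± 0.18 on the log2 scale, but library 3 lay closest to equality, at 0.15. Sv2c lay lower than Sv2a by 5.07 ± 0.11 and than Sv2b by 4.72 ± 0.10 in 3 of 3 libraries. Sv2b had a small coefficient of variation over the libraries, 1.85%, and only Doc2a of the 38 genes had a smaller one, at 1.62%.

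The SNARE genes divided by a wide margin. Snap25, which supplies a pair of helices to the fusion complex (mm10 chromosome 2, 136713453 to 136782428, plus strand), stood at 371, 402 and 348 TPM, and the vesicle SNARE gene Vamp2 (mm10 chromosome 11, 69088490 to 69092384, plus strand) at 376, 387 and 319 TPM. Vamp1, which encodes the form best known from motor synapses and spinal cord, was at 9.89, 10.9 and 6.47 TPM. Its coefficient of variation of 25.4% was the largest of the 38 genes, with library 3 lowest at 890 reads against 1526 and 1415. In 3 of 3 libraries Vamp2 exceeded Vamp1, by 5.19 ± 0.20 as log2. On the rows with the longest coding sequence, Vamp2-202 and Vamp1-202, the difference was 3.98 ± 0.27, and Vamp2 then stood at 75.6, 69.997 and 77.4 TPM, under 100 TPM. The plasma membrane SNARE gene Stx1a stood at 59.4, 56.2 and 52.4 TPM. Nsf, the ATPase that takes spent SNARE complexes apart, was at 97.95, 114 and 98.7 TPM, and Napb, whose product beta-SNAP links Nsf to the complex, at 127, 139.6 and 117 TPM.

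Snap25 is made in alternative forms that differ in 1 exon of 118 coding bases, and the table holds a row for each. The exons are shown because they are the only coding bases that tell the rows apart. Both lie on mm10 chromosome 2, plus strand, at chr2:136769743-136769860 and chr2:136770057-136770174, and are written 5′ to 3′ from the GENCODE M21 transcripts with the bases that differ in capitals.
Snap25-202: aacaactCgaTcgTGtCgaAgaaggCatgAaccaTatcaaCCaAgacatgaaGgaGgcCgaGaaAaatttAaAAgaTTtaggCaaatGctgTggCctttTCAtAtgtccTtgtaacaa
Snap25-201: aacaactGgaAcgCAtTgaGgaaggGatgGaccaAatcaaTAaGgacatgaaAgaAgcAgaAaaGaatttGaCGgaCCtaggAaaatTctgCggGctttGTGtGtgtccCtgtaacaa
They share 87 of 118 bases (73.7%), and the longest shared run is 8 bases. The row Snap25-202, which also ends earlier in the 3′ untranslated region, stood at 329, 338 and 315 TPM. Because rows of a gene share reads, these values do not give the share of each exon.

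Complexins clamp the partly zipped SNARE complex and speed its release. Cplx1 stood at 127, 139 and 99.8 TPM and Cplx2 at 125, 125 and 98.6 TPM, so the ranges of the paralogs overlapped almost wholly. Cplx1 was the higher in 3 of 3 libraries, but by 0.06 ± 0.07 on the log2 scale, a difference within its own SD. On the highest row of each gene the difference was 0.55 ± 0.23, because a short Cplx1 row of 434 bases stood at 170.1 ± 22.6 TPM. Their coding sequences are shown because a level can be given to one paralog only if reads tell them apart. Cplx1 is coded on the minus strand within chr5:108520132-108548536 and Cplx2 on the plus strand within chr13:54378669-54379706 (mm10). The first 300 coding bases without introns are written 5′ to 3′ from GENCODE M21, with those that differ in capitals.
Cplx1: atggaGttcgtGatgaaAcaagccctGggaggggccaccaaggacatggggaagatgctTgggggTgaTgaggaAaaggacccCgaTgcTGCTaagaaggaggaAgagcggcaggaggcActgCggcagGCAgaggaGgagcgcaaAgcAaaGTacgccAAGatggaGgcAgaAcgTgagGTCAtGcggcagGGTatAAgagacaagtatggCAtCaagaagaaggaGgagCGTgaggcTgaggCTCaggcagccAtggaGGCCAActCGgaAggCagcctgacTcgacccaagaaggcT
Cplx2: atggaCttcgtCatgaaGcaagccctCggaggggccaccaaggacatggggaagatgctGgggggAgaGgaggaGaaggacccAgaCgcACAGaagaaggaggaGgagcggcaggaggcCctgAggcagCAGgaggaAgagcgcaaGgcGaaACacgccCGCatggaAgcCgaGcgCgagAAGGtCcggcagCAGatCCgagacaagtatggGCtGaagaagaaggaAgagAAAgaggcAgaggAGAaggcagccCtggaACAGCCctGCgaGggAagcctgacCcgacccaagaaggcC
The whole coding sequences, without the stop codon, are both 402 bases long and 79.6% identical, with 82 differing bases and no shared run longer than 32 bases. Every 50-base word of the Cplx1 row was absent from the transcripts of all other genes, while the Cplx2 row shared 101 of 4771 words with other genes, among them Fcgr2b, Gm47409 and Rab3c.

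The other genes of this role encode C2-domain proteins that bind calcium and phospholipid. Rph3a, which encodes the Rab3 effector rabphilin, stood at 43.5, 45.4 and 37.6 TPM. Doc2b, a high-affinity sensor linked to spontaneous release, was at 8.62, 9.09 and 7.82 TPM and Doc2a at 5.55, 5.71 and 5.55 TPM, lower in 3 of 3 libraries. Doc2a minus Doc2b was -0.52 ± 0.08 on the log2 scale. On the highest rows that difference narrowed to -0.05 ± 0.02. The Doc2a row is also the one most covered by a gene on the other strand, since 64.7% of its 50-base words were free of any other gene on either strand and the rest lay in Ino80e.

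Munc13 proteins, coded by the Unc13 genes, open syntaxin and prime vesicles for fusion. Unc13a (mm10 chromosome 8, 71624417 to 71671757, minus strand) stood at 25.2, 26.7 and 24.6 TPM, Unc13b at 4.63, 3.99 and 3.97 TPM and Unc13c, best known from cerebellar granule cells, at 0.426, 0.418 and 0.533 TPM. The order Unc13a, Unc13b, Unc13c held in 3 of 3 libraries without overlap. Unc13a exceeded Unc13b by 2.35 ± 0.13 and Unc13c by 4.18 ± 0.11 on the log2 scale, and Unc13b exceeded Unc13c by 1.83 ± 0.14. The Unc13c row held 192, 159 and 214 reads, so its low level was measured well above a count of 0. Rims1 and Rims2, whose products hold calcium channels and Rab3 at the release site, stood at 15.5, 18.1 and 15.1 TPM and at 7.11, 8.21 and 7.99 TPM. Rims1 was higher by 0.97 ± 0.11 in 3 of 3 libraries, a TPM ratio of 2.09 ± 0.172. Rimbp2, which joins RIM to calcium channels, was at 13.5, 16.3 and 15.6 TPM.

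Bassoon and piccolo are very large scaffold proteins that mark the active zone from its first assembly. Bsn, read from a transcript of 15938 bases, stood at 8.24, 9.21 and 7.29 TPM, and Pclo, of 20084 bases, at 6.37, 7.46 and 5.45 TPM. Bsn was the higher in 3 of 3 libraries by 0.32 ± 0.05 on the log2 scale. Of the ELKS genes Erc2, the brain form, was at 31.5, 35.5 and 30.4 TPM and Erc1, which most tissues use, at 16.8, 18.8 and 15.2 TPM; Erc1 minus Erc2 was -0.91 ± 0.05. The Erc1 level may hold reads of another gene if strands were not kept apart, since 80.1% of its 50-base words were free of the opposite gene Gm44317. The liprin genes Ppfia2 and Ppfia3, which organise the scaffold, stood at 22.6, 27.3 and 25.6 TPM and at 23.3, 21.9 and 22.2 TPM. Their difference of 0.16 ± 0.18 was above 0 in 2 of 3 libraries, and neither can be called the higher.

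Genes of vesicle recovery were led by Snap91, which encodes the clathrin adaptor AP180, at 84.02, 96.04 and 75.5 TPM. Dnm1, the neuronal dynamin that cuts the vesicle neck, followed at 62.3, 69.1 and 55.8 TPM. Amph, whose product amphiphysin recruits dynamin, was at 48.1, 51.7 and 39.5 TPM and Synj1, the phosphatase that strips the coat, at 28.3, 32.9 and 27.1 TPM. Sh3gl2, which encodes endophilin A1, was lowest on its longest coding row, at 12.7, 12.2 and 13.1 TPM. That row, Sh3gl2-204, carries 735 coding bases, whereas Sh3gl2-201 carries 1056 and stood at 57.6, 58.7 and 54.8 TPM. The row with the longest coding sequence, Sh3gl2-203 with 1293 coding bases, stood at 26.6, 27.3 and 28.2 TPM. On Sh3gl2-201 the gene lay above Amph and Synj1 in each library, while on Sh3gl2-203 its mean of 27.4 TPM was the lowest of the role, with a range that overlapped that of Synj1.

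In all 18 pairs of paralogs or alternative proteins were compared, every pair within each family of the list. In 17 pairs the difference had 1 sign in 3 of 3 libraries, and in 14 it was more than 2 times its SD. An exact permutation test that flips the signs of the libraries (two-sided) gave p = 0.25 for each of the 17 pairs, which is the smallest value 3 libraries allow, and p = 0.5 for Ppfia2 and Ppfia3. Adjusted over the 18 pairs by the Benjamini-Hochberg method, the exact test's values were 0.265 and 0.5, so no pair could pass 0.05 in this design.

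**Figure D2:**
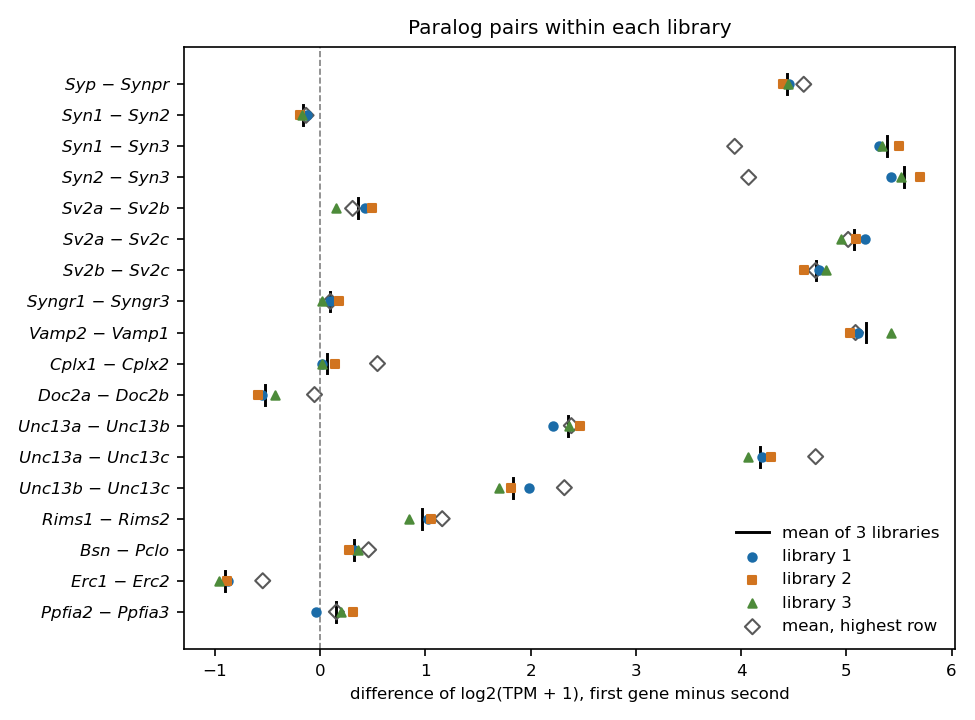
Difference of log2(TPM + 1) between the genes of each of 18 pairs, first minus second, in libraries 1, 2 and 3 (symbols) with their mean (black bar) and the mean on each gene's highest row (open diamond). Differences run from -0.91 for Erc1 minus Erc2 to 5.55 for Syn2 minus Syn3, and Ppfia2 minus Ppfia3 has libraries on both sides of 0.

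The table held 174 transcript rows of the 38 genes, and 7 genes had a single row. For 16 of 38 the longest coding row was also the highest, and for 24 the highest row stood at less than 1.1 times it. In 5 genes the highest row was at least 1.5 times the longest coding row: Sh3gl2 (6.32 times), Syn3 (4.74 times), Dnm1 (1.84 times), Stx1a (1.82 times) and Unc13b (1.51 times). The highest row of Dnm1 and of Stx1a is a short non-coding model, of 810 and 655 bases, at 115 ± 10.2 and 102 ± 0.392 TPM. For Sh3gl2, Syn3 and Unc13b it is a coding model. Separation from other genes was judged by 50-base words of the longest coding rows. In 20 of 38 rows every word was absent from all other genes' transcripts on either strand, and in 3, Syp, Doc2a and Erc1, fewer than 95% were. In Syp 67.4% were, the remainder lying in the opposite gene Gm14703. The counting's strand setting is not given, and exons of 12 of the 38 genes overlap a gene on the other strand. For these 12 the words do not show that reads were kept apart.

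**Figure D3:**
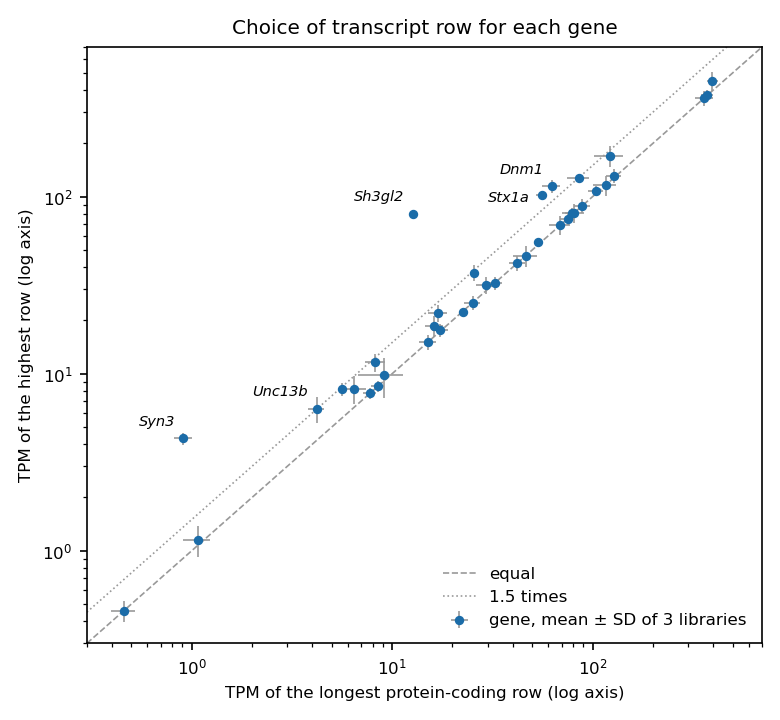
TPM of the highest row of each gene against TPM of its longest protein-coding row, both on log axes, as mean ± SD of 3 libraries for the 38 genes. The dashed line marks equal values and the dotted line 1.5 times; the 5 named genes lie at or above the dotted line, with Sh3gl2 and Syn3 farthest from equality.

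The 38 genes tended to share the library in which they were high. Of the 36 at 1 TPM or more, 31 were highest in library 2, where 40.3% of all protein-coding genes of that level were and 44% of those of at least 10 TPM. Library 3 held the lowest value of 27 of them, where 40.8% of all such genes were lowest and 45.8% of those of at least 10 TPM. Cplx1, Vamp1 and Syp gave examples above: Cplx1 and Vamp1 were highest in library 2 and lowest in library 3, while Syp was highest in library 2 and lowest in library 1. The median difference of library 2 minus library 3 was 0.22 on the log2 scale over these genes and 0.03 over all protein-coding genes of at least 1 TPM. The median coefficient of variation was 9.29% and 7.88% in the same order. Libraries of 1 group have no contrast to test, and in bulk RNA fewer cells of a type and less RNA per cell cannot be told apart.

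Other measures moved between the same libraries. The summed level of the 7 astrocyte genes was 725, 719 and 998 TPM, and 6 of the 7 were highest in library 3. Apoe alone held 365, 344 and 550 TPM of this sum. The sum of the 8 pan-neuronal genes was 1735, 1699 and 1555 TPM, and that of the 5 GABAergic genes 272, 282 and 186 TPM. Of the 8 pan-neuronal genes 4 were highest in library 2 and 0 in library 3, while 6 were lowest in library 3 and 1 in library 2. The 5 glutamatergic genes differed little, with sums of 196, 195 and 194 TPM. The 6 oligodendrocyte lineage genes summed to 64, 48.8 and 80.3 TPM, with 3 highest in library 3 and 1 in library 2. The 4 genes of proliferating cells summed to 8.96, 6.85 and 8.88 TPM, and all 4 were lowest in library 2. No marker of the astrocyte list was at 0. Read coverage along transcripts differed slightly too: short rows lying toward the 5′ side of a longer one stood at a median of 0.207, 0.1697 and 0.254 log2 units above the longer row in libraries 1, 2 and 3, over 4407 rows of all genes. For 12 such rows of 6 of the 38 genes the medians were 0.118, 0.1598 and 0.261. Over all genes, short rows in the middle had medians of 0.442, 0.438 and 0.456 and those toward the 3′ side 0.406, 0.402 and 0.391. Both stood further above the longer row than the 5′ rows in each library, so the 5′ values are not a 5′ excess. The part of these measures in the library pattern was not tested.

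**Figure D4:**
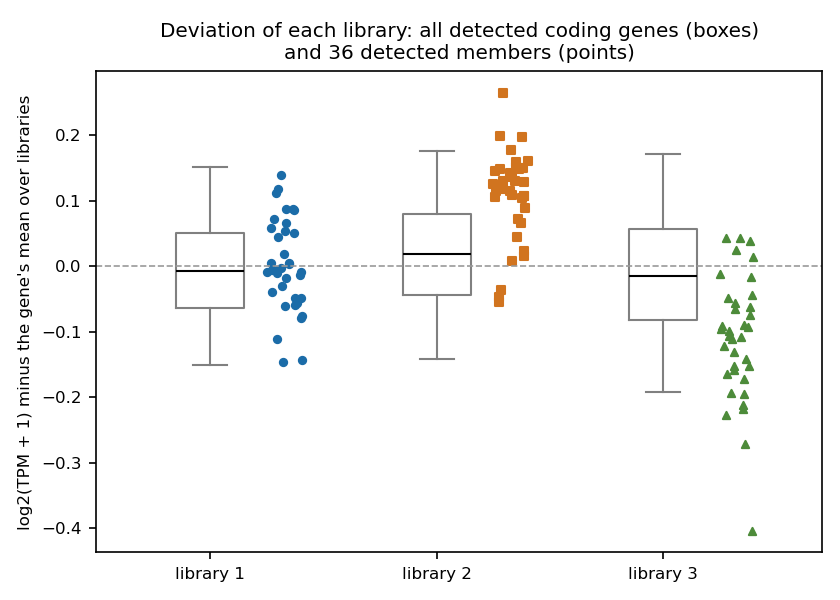
Deviation of each library from a gene's mean over the 3 libraries, on the log2(TPM + 1) scale. Boxes show the median and quartiles, with whiskers at the 5th and 95th percentile, of 11141 protein-coding genes of at least 1 TPM, and points show the 36 of the 38 genes at that level; most points lie above 0 in library 2 and below 0 in library 3.

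The 38 genes spanned 3.895 kb (Vamp2) to 856 kb (Erc2, mm10 chromosome 14, 27622442 to 28478537, plus strand) of genome. Their median span was 84.8 kb, against 21.2 kb for all protein-coding genes, and 31.6% of them exceeded 200 kb against 5.24%. The 12 genes over 200 kb, among them Rims1, Rims2, Ppfia2, Syn3, Pclo and Unc13c, stood between 0.459 and 46.4 TPM with a median of 14.4. The 11 genes of at most 30 kb ranged from 5.6 TPM, for Doc2a, to 396 TPM, for Syp, with a median of 68.9. The 15 genes of 30 to 200 kb had a median of 62.4 TPM, near that of the shortest. Sh3gl2, also over 200 kb, had a mean of 57 TPM on the row Sh3gl2-201, above the range given for its longest coding row and the others. Role was not separated from span. Across the 38 genes Spearman's rho of level with span was -0.51 and with transcript length -0.48, with Syn3 and Unc13c included. Over all 18109 protein-coding genes the values were 0.19 with span and 0.19 with transcript length, and over the 11141 of at least 1 TPM they were -0.03 and -0.11. These are descriptions across genes of the same 3 libraries, which are not independent replicates, and span and transcript length go together.

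**Figure D5:**
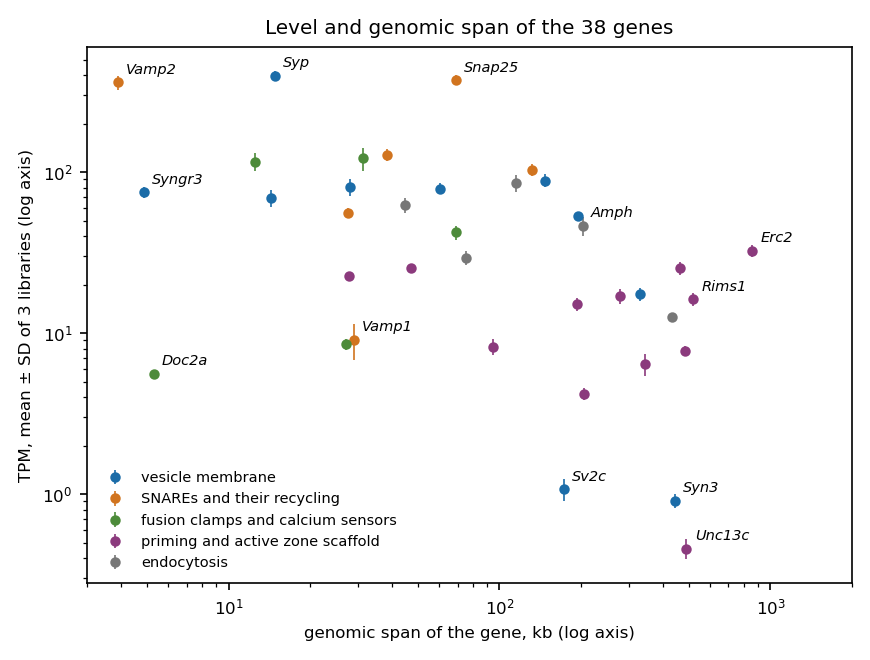
Mean ± SD of TPM over 3 libraries against the genomic span of each of the 38 genes in kb, both on log axes, coloured by role. The genes over 200 kb all lie below 100 TPM, while Vamp2, Syp and Snap25, of 3.895, 14.8 and 68.98 kb, are the highest.

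Promoters of 30 of the 38 genes could be read, each from 250 bases before to 50 after a RefSeq start within 1000 bases of the start of the gene's row. Their median GC content was 66.2%, against 62% for 8391 protein-coding genes of at least 1 TPM and 59.3% for all 13224 read. An observed over expected CpG ratio above 0.6 was found in 23 of 30 (76.7%), against 79.5% of the 8391 and 60.1% of the 13224. Shares of the words below are over the 13224, genes under 1 TPM included, and were not taken over the 8391. The GC box GGGCGG lay on either strand in 22 of 30, where 57.2% of 13224 protein-coding genes had it, and TATAAA in 1, Sv2b, where 9.28% did. RE1 is the element through which the repressor REST silences many neuronal genes outside neurons. Its left part TTCAGCACC lay in 3 promoters, those of Syn1, Unc13a and Ppfia3, where 0.423% of protein-coding genes had it. The right part GGACAGCGC lay in Unc13a alone, 5 to 13 bases after the start. In that promoter the left part lay 22 to 30 bases after the start, and both matched the strand opposite to the gene. CAGCACC followed after 2 bases by GGACAG, the joined core, lay in none of the 30 as exact letters. In Syn1 CAGCACC was followed after 2 bases by GGTCAG. The cyclic AMP response element TGACGTCA lay in 2, Syn1 and Sh3gl2, where the share was 2.75%. All were searched on both strands as exact letters, so near matches were not counted, and a match is a description of the letters only.

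The Syn1 promoter is shown because it held both TTCAGCACC, starting 232 bases before the start, and TGACGTCA, starting 159 bases before it. The 250 bases before the RefSeq start (GRCm38.p6, the mm10 build, minus strand, chrX:20920919-20921168) are written 5′ to 3′ with both matches in capitals.
Syn1: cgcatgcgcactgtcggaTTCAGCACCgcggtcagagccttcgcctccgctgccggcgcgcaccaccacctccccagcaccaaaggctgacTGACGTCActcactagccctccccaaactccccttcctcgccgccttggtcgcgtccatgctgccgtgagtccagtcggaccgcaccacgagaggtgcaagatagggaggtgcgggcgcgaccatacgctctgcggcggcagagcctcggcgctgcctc
Its gene stood at 78.8 ± 6.18 TPM, and of the other genes that held one of these words Unc13a stood at 25.5 ± 1.09 TPM, Ppfia3 at 22.4 ± 0.774 TPM and Sh3gl2 at 12.7 ± 0.433 TPM.

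Other presynaptic genes were read from 4 lists. Of all protein-coding genes 61.5% were at 1 TPM or more, a share near the 9 of 14 of the transmitter loading list below. Of the fusion partners 17 of 17 were at 1 TPM or more (median 5.17 ± 0.05 on the log2 scale), among them the vesicle GTPase gene Rab3a at 175 ± 7.11 TPM. Of the transmitter loading genes 9 of 14 were and 5 were under 1 TPM (median 4.58 ± 0.26), led by the proton pump subunit genes Atp6v1e1, Atp6v1b2 and Atp6v1a at 199 ± 11.6 TPM, 149 ± 17.6 TPM and 138 ± 11.1 TPM. Other active zone and endocytosis genes had 24 of 26 at that level (median 4.41 ± 0.13), led by the calcium sensor gene Syt1 at 232 ± 34.6 TPM, Scamp5 at 113 ± 20.6 TPM and the clathrin light chain gene Clta at 76.4 ± 6.05 TPM. Of paralogs that many non-neuronal cells use 13 of 16 were (median 2.19 ± 0.07), and Vamp7, also listed, had no value. The highest were Napa at 35.1 ± 1.23 TPM, Snap29 at 15.8 ± 0.749 TPM and Sh3gl1 at 12.98 ± 0.698 TPM. Napa is counted among the fusion partners too. The transmitter loading genes under 1 TPM include Atp6v0c, whose separation from other genes was not checked. Snap23, the paralog of Snap25 outside neurons, was at 3.09, 3.05 and 3.65 TPM, and Vamp3, that of Vamp2, at 13.3, 13.6 and 11.1 TPM. Both lay below their neuronal paralog in 3 of 3 libraries. By library, 12 of 17 fusion partners, 9 of 14 transmitter loading genes and 12 of 26 other active zone and endocytosis genes were highest in library 2, and 11, 10 and 15 were lowest in library 3. Of all protein-coding genes of at least 1 TPM, 40.3% were highest in library 2 and 40.8% lowest in library 3. The 12 of 26 lay near the first share, and the lists also hold genes under 1 TPM. Of the 16 paralogs that many non-neuronal cells use 5 were highest in library 2 and 2 lowest in library 3.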

How the data were processed

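Poly-A RNA of cultured cortical neurons was sequenced in 3 libraries of 1 untreated group. The authors deposited TPM per transcript row and library, per the file headers, made with Trimmomatic, TopHat, Bowtie and HTSeq on mm10, per the submitters' processing notes, which give no role or order. Strand setting, filters and the handling of reads that map to several places were not given in the sources used here. All 84660 rows were looked up by transcript ID in GENCODE M21 of the same build: 83017 matched, and 47 of these lay elsewhere and were given no gene. A gene's value is its longest protein-coding row by M21 length; 30 of the 38 rows have the same ends in both annotations. Multiplied by length, the TPM of a library came out as a multiple of a fixed step (tolerance 0.01) for 99.8% of 69510 rows with equal ends above 0. This gave reads, used as depth only; 1 TPM on 2 kb stood for 103, 86.5 and 91.4 reads. Intervals on reads were not used. The chi-square of reads between the libraries, divided by its degrees of freedom, was 12.8, 17.5 and 18.9. The libraries thus differed by more than read sampling, which reads of 1 library split into parts would not, so all 3 were kept. These values do not measure agreement between the libraries.

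The log2 scale is log2(TPM + 1), where ratios of low genes appear too small. Pairs were tested with the exact sign-flip permutation test. The members, lists, pairs and alternatives were chosen with earlier results of these data known. All 38 genes are accounted for; of the other lists the 3 highest genes and, for neuronal and astrocyte markers, the highest gene are named, except that some fusion partners are not reported here, while the paralogs Snap23 and Vamp3, Aif1 and the coding and other rows compared were chosen after their values were seen. Alternatives were the highest row, the row with the longest coding sequence, each library left out, rescaling to nuclear protein-coding genes, a pseudocount of 0.1 and other detection limits. Calculations were tested on simulated data. Tools were Python 3.11.15, pandas 2.3.3 and numpy 2.4.6.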

Additional observations from a re-analysis of the deposited data

How the results depend on the processing

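No paired analysis was possible because the series has 1 group. Of 108 values of the 18 pairs under other rows, a pseudocount of 0.1 or 1 library left out, 1 changed sign: Syn1 minus Syn2 was 0.958 on the rows with the longest coding sequence, since Syn2-201 is then read in place of Syn2-202. The number of the 38 genes detected ran from 34 (at a limit of 5 TPM) to 38. The median of the 38 genes was 5.34 on the highest row, 5.25 over those of at least 1 TPM, which leaves out the low ones, and 4.92 to 5.05 with 1 library left out. On the row with the longest coding sequence the vesicle membrane median was 5.95 and the SNARE median 6.47, and on the highest row the endocytosis median was 6.34. Deposited TPM values are scaled over all rows, including rows that share reads. Rescaling to nuclear protein-coding genes raised the median over all 11141 genes of at least 1 TPM by 2.12 on the log2 scale; the median of the 38 genes became 7.21, and those of vesicle membrane, SNAREs, complexins and sensors, scaffold and endocytosis 8.43, 9.102, 7.66, 6.24 and 7.795. All 38 genes were then at 1 TPM or more, where 71.5% of protein-coding genes were. Spearman's rho of level with span was -0.482 on the highest row. Alternatives for the library pattern were chosen after seeing the data: 28 of 37, 30 of 37 and 27 of 38 detected genes were highest in library 2 on the highest row, on the longest coding sequence and after rescaling, and 23, 26 and 23 were lowest in library 3. Over all protein-coding genes of at least 1 TPM the shares in the same order were 35.5%, 39.5% and 32.8% highest in library 2 and 36.5%, 40.4% and 31.2% lowest in library 3. After rescaling, more of all these genes were highest in library 3 (5350 of 12944) than in either of the others. Depth limited the low genes most, with 151 reads for Syn3 in library 3.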

Other observations

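Atp6v0c, which encodes the proteolipid ring subunit of the vesicle proton pump, stood at 0.726, 0.4302 and 0.537 TPM, while the other 5 pump genes listed had means between 89.8 and 199 TPM. Its highest row stood at 0.731 ± 0.161 TPM. The handling of reads that map to several places is not given, and separation from other genes was not checked for Atp6v0c. Whether its low value reflects the RNA level or the counting of reads was not tested.

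The short Syp row of 433 bases stood at 396, 448 and 508 TPM in libraries 1, 2 and 3, highest in library 3, while the whole Syp row was highest in library 2, at 379, 426 and 384 TPM. Vamp2 showed the same split: its row Vamp2-202 stood at 75.6, 69.997 and 77.4 TPM and its longest row at 376, 387 and 319 TPM.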
